A study of Mus musculus with 6 samples.

Results

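Keratinocytes of the upper hair follicle were taken here as the CD45-negative mouse skin cells with at least 3 UMIs (unique molecular identifiers, which count captured RNA molecules) of the keratin gene Krt79. Cells entered if they held 500 UMIs and 300 genes or more and no more than 10% of their UMIs were mitochondrial. Of these, cells were left out where Krt1 and Krt10, keratins of the suprabasal epidermis, made up 2% of UMIs or more. Cells were also left out with 3 or more UMIs of the sebaceous genes Scd3, Cidea, Awat1, Mc5r and Elovl3, with 2 or more of the bulge and hair germ genes Cd34, Lgr5, Lhx2 and Fgf18, or with over 5 of Col1a1, a fibroblast collagen. This gave 3039 of 23796 cells, and the rule's own genes are described below without being read as results.

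The study sorted live skin cells by CD45, the surface marker of leukocytes, from wild-type mice and from mice that lack an enhancer upstream of Il2ra (UP_Del), with or without alopecia, which is loss of hair. All were untreated adult females aged 17 to 18 weeks, and the genotype field reads C57/BL6 for every sample, the deletion being named only in the titles. The skin was clipped, scraped free of hypodermis and digested with enzymes before sorting, and droplet libraries were made with a 10x Genomics 5' kit. There was 1 CD45-negative library per group. How many mice went into a library is not given in the sources used here, so no comparison below has a replicate check, and intervals (95%, exact) cover counting error only.

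Krt79 marks the cells that line the follicle canal above the hair bulge: the infundibulum, which opens at the skin surface, the junctional zone, and the duct of the sebaceous gland. These cells form the barrier of the follicle mouth and meet the skin's microbes. They renew from stem cells at the junctional zone and isthmus that carry Lrig1, Plet1 or Lgr6, and they lose basal keratins as they move toward the canal lumen. Their known products include Krt17, a keratin of skin appendages, Cst6, an inhibitor of cathepsins and legumain that limits desquamation, and Defb6, an antimicrobial beta-defensin.

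Stretches upstream of 4 genes are shown because Krt79 chose these cells and Defb6 is 1 of their known products, and the other two, Fos and Zfp36, stand for the early response genes, which were low in the alopecia library. Each is the 250 bases before the RefSeq start on build GRCm38.p6, read 5′ to 3′ on the gene's strand, at chr15:101940325-101940574 (minus strand) for Krt79, chr8:19225228-19225477 (plus) for Defb6, chr12:85473640-85473889 (plus) for Fos and chr7:28379229-28379478 (minus) for Zfp36. Capitals mark a TATAAA box, 33 bases before the start of Fos, and a CArG box, the serum response factor motif, 58 bases before the start of Zfp36.
Krt79: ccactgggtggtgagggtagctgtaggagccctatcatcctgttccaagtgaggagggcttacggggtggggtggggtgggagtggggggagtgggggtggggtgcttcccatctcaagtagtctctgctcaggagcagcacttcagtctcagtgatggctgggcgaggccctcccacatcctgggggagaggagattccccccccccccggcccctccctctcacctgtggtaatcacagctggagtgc
Defb6: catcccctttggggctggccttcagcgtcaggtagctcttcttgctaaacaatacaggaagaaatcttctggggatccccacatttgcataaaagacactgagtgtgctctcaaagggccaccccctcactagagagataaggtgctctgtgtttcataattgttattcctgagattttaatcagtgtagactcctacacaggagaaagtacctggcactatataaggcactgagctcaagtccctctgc
Fos: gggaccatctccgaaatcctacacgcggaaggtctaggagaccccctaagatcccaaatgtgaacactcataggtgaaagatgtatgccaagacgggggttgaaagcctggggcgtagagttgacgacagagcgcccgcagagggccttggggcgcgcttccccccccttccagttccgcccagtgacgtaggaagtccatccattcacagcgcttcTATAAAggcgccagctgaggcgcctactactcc
Zfp36: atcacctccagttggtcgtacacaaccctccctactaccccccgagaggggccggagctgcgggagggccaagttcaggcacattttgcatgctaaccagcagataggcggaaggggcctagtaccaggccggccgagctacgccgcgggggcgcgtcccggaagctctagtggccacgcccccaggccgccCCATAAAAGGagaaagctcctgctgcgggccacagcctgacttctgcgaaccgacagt
On both strands 5 motifs were searched: TGANTCA for AP-1, TGACGTCA for the cyclic AMP response element, the CArG box, TATAAA, and GGGCGG for SP1. The Krt79 and Defb6 stretches held none in these letters. Fos and Zfp36 each held 1 GGGCGG, which is not marked. Ier3, another early response gene searched, held GGGCGG but neither marked motif. Of the 36 early response genes, 29 were matched, with genes on 1 chromosome left out of this search. A gene counted where any of its stretches held the motif. Of these 29 genes, GGGCGG stood in 25 (86.2%), TATAAA in 7 (24.1%) and the cyclic AMP element in 3 (10.3%). The CArG box stood in 3 and the AP-1 motif in 1 (3.45%). In the same order the letters occurred in 32.7%, 12.4%, 1.55%, 1.47% and 6.75% of all 32851 stretches of that length. That count is per stretch and takes in every chromosome, so its shares are not like those by gene. A match is a description of letters and not a measured binding site.

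The 3 marker genes that did not choose the cells were high in them. Levels below are UMIs summed over the cells of a library and scaled to an equal total per library (CPM). Krt17 stood at 8644 CPM in wild type, 6579 in no alopecia and 8928 in alopecia. Cst6 stood at 14690, 10498 and 16562 CPM in the same order, and Defb6 at 10097, 4884 and 7377 CPM. In keratinocytes of the same libraries without any Krt79 UMI (475, 5424 and 940 cells with at least 10 UMIs of Krt5 and Krt14), Cst6 was at 76.3, 38.2 and 35.8 CPM and Defb6 at 86.7, 15.4 and 28.1 CPM. Krt17, which other follicle layers also use, was at 989, 1026 and 999 CPM in those cells and at 1615, 1973 and 2137 CPM in bulge cells. Summed over members, the label therefore holds by these markers in each library. Members with a Krt5 UMI, described below, held less of each marker.

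**Figure D1:**
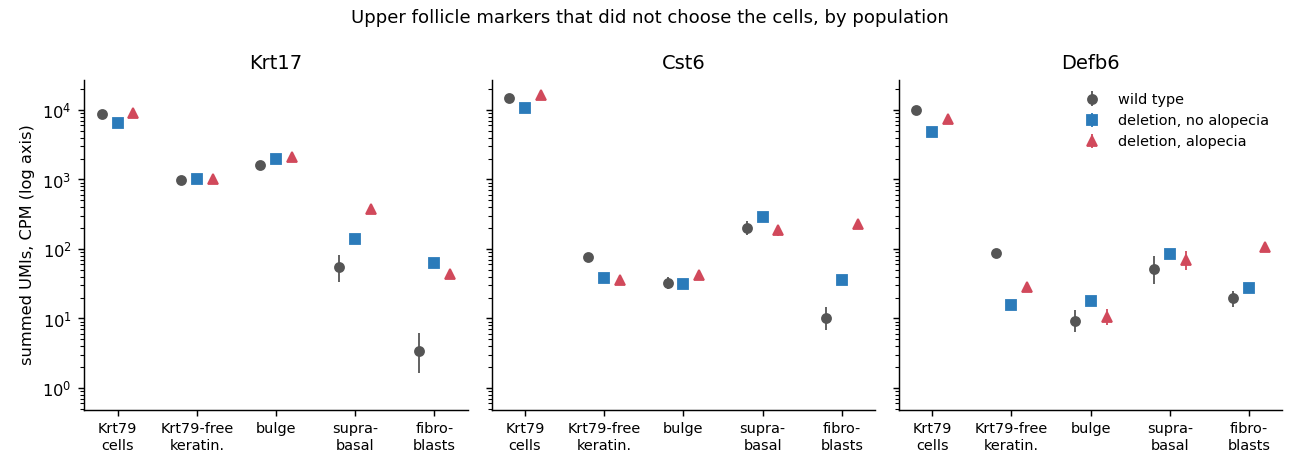
Summed level of Krt17, Cst6 and Defb6 in CPM (log axis) in Krt79 cells and in 4 other populations of the same library, with exact 95% intervals for counting error. Cst6 was between 10498 and 16562 CPM in Krt79 cells and at most 291 CPM in any other population plotted.

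After thinning each cell to 2000 UMIs, Cst6 was detected in 78.8% of wild-type Krt79 cells, 70.7% without alopecia and 80.1% with alopecia. Fibroblasts, which are not known to make this keratinocyte product, gave 1.17%, 2.61% and 1.54%. Their median depths were 4691, 3603.5 and 4450 UMIs, against 6443, 5906.5 and 6310 in the Krt79 cells.

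Other genes far above their level in Krt79-free keratinocytes in each library included Alox12e, an epidermal lipoxygenase (1666 against 132, 1253 against 56.4 and 1837 against 63.7 CPM). Sprr1a, a cornified envelope precursor, was at 1612, 1199 and 1510 CPM against 95.7, 149 and 95.5. Sbsn, a secreted product of differentiating keratinocytes, was at 2527, 1762 and 2177 CPM against 913.3, 200.05 and 292.7. Krt5 and Col17a1, which serve the basal layer, were lower in the Krt79 cells of each library. The Krt79-free cells were chosen by at least 10 UMIs of Krt5 and Krt14, and members were not. That choice favours basal genes in the Krt79-free cells, so this direction is no separate support. These are descriptions of cells picked by a gene, not tests.

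Members at the edge of the rule carried little Cst6. Cells with exactly 3 Krt79 UMIs, the lowest inside the rule, numbered 12, 80 and 26 and held 512, 582 and 470 CPM of Cst6. Cells with 2 UMIs, just outside it, numbered 29, 116 and 28 and held 478 and 1284 CPM in wild type and alopecia and less in no alopecia. Defb6 stood at 5280, 1208 and 732 CPM in cells with 3 Krt79 UMIs and at 2776, 533 and 967 CPM in those with 2. By Defb6 the edge of the rule thus differed between the libraries. The median member held 30 Krt79 UMIs in wild type, 24 without alopecia and 33 with alopecia. Of the 564, 1949 and 760 kept cells with at least 3 Krt79 UMIs, the bulge genes removed 14, 120 and 35 and the sebaceous genes 2, 37 and 11.

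Members numbered 544, 1784 and 711. They made up 16.2% (14.99 to 17.51) of kept wild-type cells, 11.5% (11.02 to 12.03) without alopecia and 14.3% (13.38 to 15.35) with alopecia. The share with alopecia was 1.25 times that without (1.14 to 1.36), and the share without alopecia was 0.71 times that in wild type (0.645 to 0.783). The order rests on the cell filter: with no filter the shares were 12.7%, 10.9% and 10.6%, and the ratio with against without alopecia was 0.969 (0.889 to 1.06). Barcodes over the mitochondrial limit made up 22.3%, 6.19% and 27.4% of the libraries, so the filter removed more of the wild-type and alopecia libraries. The sort and the digestion also set which cells reach a library, and their part was not tested.

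Members carried 3981759, 13483230 and 5209605 UMIs in all, with median mitochondrial shares of 2.62%, 1.92% and 2.69%. The CD45-negative libraries shared 117 barcodes (wild type and no alopecia), 149 (no alopecia and alopecia) and 48 (wild type and alopecia), and 2, 2 and 0 of these were members in both. Markers of fibroblasts, endothelium, melanocytes, glia and red blood cells reached 3 UMIs in under 1% of members of each library. Leukocyte markers reached it in 3.68%, 0.841% and 3.52%, led by Trbc2, with Ptprc and Trdc at 0 in the wild-type and no-alopecia members, Laptm5 and Cd3e also at 0 in wild type, and a summed level of 50.2, 24.7 and 45.1 CPM. Mural cell markers reached it in 9.93%, 5.94% and 12.9%, at summed levels of 127, 98.5 and 154 CPM, led by Notch3, which keratinocytes also express, with Acta2 and Des at 0 in wild type. Inner root sheath genes, of the layer that moulds the growing hair, reached 3 UMIs in 3, 11 and 8 members.

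Within each library the members ran from cells with basal keratins to cells without them. A split at the first UMI of Krt5, the basal type II keratin, was chosen after the data had been seen. Krt5 was at 0 in 413, 990 and 515 members, and 131, 794 and 196 members held at least 1 UMI. Cst6 was at 19670, 20760 and 24720 CPM in members without Krt5 and at 3791, 3904 and 2790 CPM in members with it. Krt17 followed the same division, with 10490, 11280 and 11810 CPM against 4597, 3562 and 4062 CPM. Krt79 was at 7639, 9049 and 8514 CPM against 4197, 2920 and 3350 CPM.

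The basal side of the split held the genes of anchorage. Col17a1, the hemidesmosomal collagen, was at 30.7, 54.2 and 38.2 CPM in members without Krt5 and at 318, 575 and 320.4 CPM in members with it. Krt15, a keratin of basal and bulge cells, was at 1512, 1619 and 1466 CPM against 3998, 4721 and 3669 CPM. Lgr6, a receptor of R-spondins that marks stem cells of the isthmus, was at 1.10, 2.65 and 0.917 CPM against 15.2, 37.2 and 17.0 CPM. Gata6, a transcription factor of the sebaceous duct and upper follicle, lay at 135, 142 and 162 CPM without Krt5 and 118, 74.7 and 86.7 CPM with it. Members with Krt5 were deeper, with median UMIs of 7843, 8170.5 and 7997.5 against 5855, 4866.5 and 5558, and a deeper cell is more likely to show a Krt5 UMI.

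**Figure D2:**
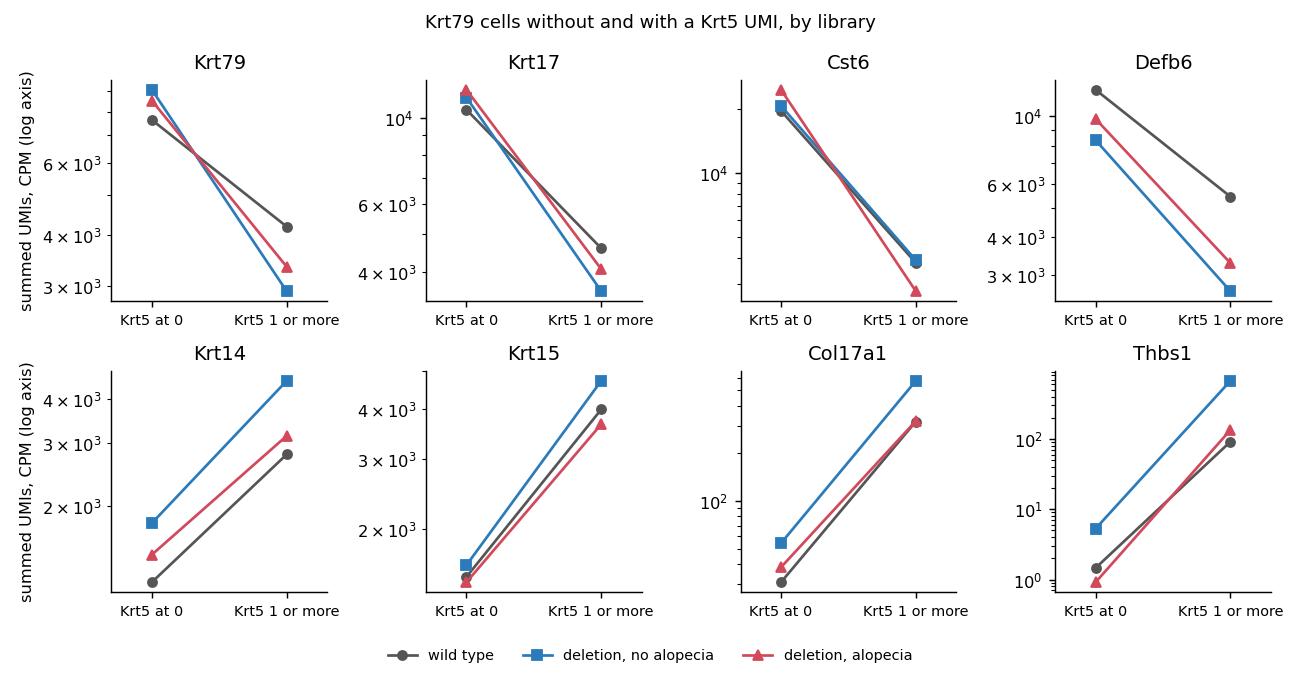
Summed level in CPM (log axes, ranges differ) of 8 genes in members without and with a Krt5 UMI, 1 line per library. Krt79, Krt17, Cst6 and Defb6 were higher without Krt5 in all 3 libraries, and Krt14, Krt15, Col17a1 and Thbs1 were higher with it.

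The same gradient appeared when members were ranked by Krt79 per UMI into tertiles set over all libraries. From the lowest to the highest tertile Cst6 went from 2581 over 12530 to 27500 CPM in wild type, from 1767 over 13030 to 23650 in no alopecia and from 1957 over 13950 to 31080 in alopecia. Krt5 went the other way, from 1430 over 344 to 86.6 CPM, from 4521 over 953 to 220.3 CPM and from 1924 over 293 to 24.1 CPM. Both genes were thus graded with Krt79 in each of the 3 libraries. Krt79 also chose the members, and Krt79 and Krt5 share each cell's depth. The gradient is therefore a description of these cells and not separate support for the Krt5 split.

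Dividing cells lay on the Krt5 side. Members with at least 3 UMIs of 7 proliferation genes numbered 3, 36 and 8, or 0.551%, 2.02% and 1.13%. All of them held a Krt5 UMI, and 0 of the 413, 990 and 515 members without Krt5 passed, which allows a share of up to 0.889%, 0.372% and 0.714% (Clopper-Pearson). By Krt79 tertile, 2, 35 and 7 of the members that passed were in the lowest and 0 in the highest. They thus lay toward the membership limit. Mki67, a nuclear protein of cycling cells, was at 5.27 CPM in wild type, 29.6 in no alopecia and 11.9 in alopecia over all members.

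The library without alopecia held the largest share of members with a Krt5 UMI among the 3. The share was 44.5% (42.2 to 46.8) there, against 24.1% (20.5 to 27.9) in wild type and 27.6% (24.3 to 31.0) in the alopecia library. After thinning to 2000 UMIs it was 38.6% there, 19.2% in wild type and 22% in alopecia, and among members with no more than 6000 UMIs it was 28.9% there, 17.0% in wild type and 14.6% in alopecia. Doublet scores marked 0.551%, 8.52% and 2.25% of members, and 133 of the 152 marked members without alopecia held Krt5. With marked members removed the share was 23.8% in wild type, 40.5% in no alopecia and 26.8% in alopecia. The library without alopecia was the highest under each of these settings, while the order of the other two turned with the limit of 6000 UMIs. The part of undetected doublets in it was not tested.

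**Figure D3:**
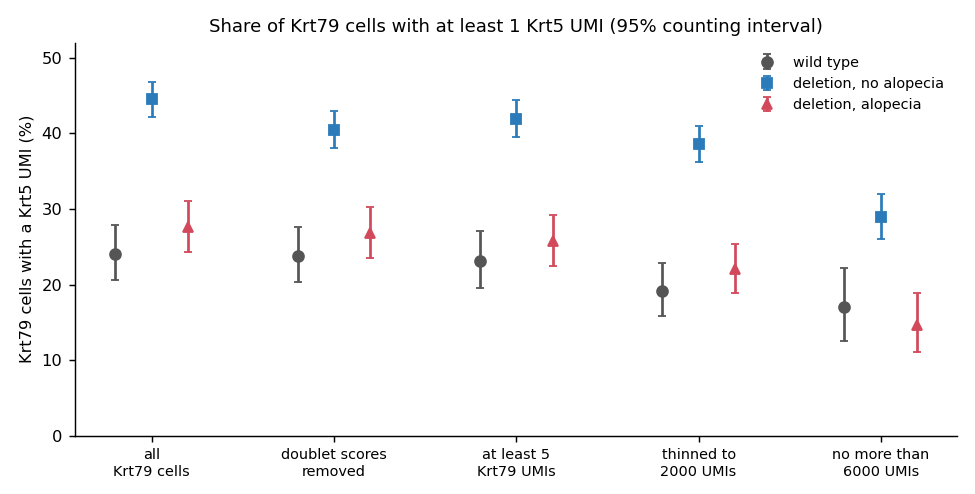
Share of Krt79 members with at least 1 Krt5 UMI (percent, with exact 95% intervals) in each library under 5 settings. The library without alopecia lies between 28.9% and 44.5%, above the other two at every setting drawn.

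Between the alopecia and the no-alopecia library, 10915 genes had at least 50 summed counts in members. A gene is called here where its CPM differs by at least 1.5-fold, and 705 genes (6.46%) were called higher and 1158 (10.6%) lower with alopecia, at a median log2 ratio of -0.03 over all genes. Because both this comparison and that with wild type use the library without alopecia, a level peculiar to that library enters both. Each comparison's own values are therefore given with the level in all 3 libraries.

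Of 20 upper follicle genes measured, 5 were called higher with alopecia (against 6.46% of all genes) and 2 lower (against 10.6%), with a median log2 ratio of 0.38. Cst6 had a log2 ratio of 0.66 (0.65 to 0.67) and Defb6 of 0.60 (0.58 to 0.61). Defb1, another beta-defensin, was at 251 CPM in wild type, 153 in no alopecia and 272 in alopecia, a log2 ratio of 0.83 (0.73 to 0.93). Nebl, which encodes the actin-binding nebulette, was at 460, 306 and 494 CPM (0.69, 0.62 to 0.76). For each of these genes the library without alopecia was the lowest. With the members of highest doublet score removed, 2 of the 20 were called higher and 2 lower, and the log2 ratio was 0.47 for Cst6 and 0.45 for Defb6, both under 1.5-fold. With each Krt79 tertile given the same share in each library the count was also 2 higher, with Cst6 at 0.29 and Defb6 at 0.31. Defb6 was also under 1.5-fold with either other scaling, at 0.56 and 0.55.

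The 2 called lower were stem cell or signalling genes. Lgr6 was at 5.53 CPM in wild type, 23.7 in no alopecia and 6.91 in alopecia (-1.78, -2.32 to -1.28), and Fst, the activin antagonist follistatin, at 56.3, 130 and 81.4 CPM (-0.68, -0.83 to -0.52). Lrig1, which restrains epidermal growth factor receptors in junctional zone stem cells, stood at 180, 189 and 218 CPM, and Plet1 at 258, 297 and 226 CPM, both under 1.5-fold. Sox9, a transcription factor of follicle keratinocytes, stood at 307, 347 and 320.2 CPM.

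Within members without Krt5, the marker differences were smaller. Cst6 then had a log2 ratio of 0.25, Defb6 of 0.23 and Krt17 of 0.07, and 2 upper follicle genes were called higher and 4 lower of 19 measured. The background among those members was 4.72% higher and 6.78% lower. In members with Krt5, Cst6 had the opposite sign, at -0.49.

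Basal layer genes were lower with alopecia as a group. Of 16 measured, 14 were called lower and 0 higher, with a median log2 ratio of -1.05, against 10.6% and 6.46% of all genes. Krt5 was at 567 CPM in wild type, 2499 in no alopecia and 694 in alopecia, 3.6-fold lower with alopecia. Krt14, its type I partner, was at 1716, 3433 and 2089 CPM, and Krt15 at 2291, 3508 and 2286 CPM. Itgb4, the beta subunit of the hemidesmosomal integrin, was at 35.7, 90.6 and 44.0 CPM (-1.04, -1.25 to -0.84). In each case wild type and alopecia lay close together and the library without alopecia stood above both.

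On the 2 sides of the Krt5 split the basal difference had unequal size. Among members without Krt5, 5 of 13 basal genes were called lower, at a median of -0.29, and among members with Krt5, 10 of 16 at -0.84. With the same share of Krt5 members in each library 8 of 16 were called lower, with Krt5 itself at -1.14. Trp63, the transcription factor that maintains stratified epithelium, differed little even over all members, at 244, 326 and 287 CPM. Among cell cycle genes, 15 of 19 were called lower over all members at a median of -1.21, 0 of 5 measured in members without Krt5, and 12 of 19 at -0.92 in members with it. What part of these list differences the Krt5 share makes up was not tested beyond these values.

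Among genes ranked lowest with alopecia were matrix and secreted proteins. Thbs1, the matrix glycoprotein thrombospondin, was at 29.6 CPM in wild type, 411 in no alopecia and 50.5 in alopecia, 8.13-fold lower (7.19 to 9.24). It was at 1.46, 5.31 and 0.917 CPM in members without Krt5 and at 91.3, 671 and 134 CPM in members with it. Few cells carried it, 16, 231 and 21 members, and 5 of the wild-type and 7 of the alopecia cells held 77.1% and 78.3% of its UMIs there. In no alopecia it went from 771 over 128 to 9.18 CPM from the lowest to the highest Krt79 tertile, so it lay toward the membership limit. Serpinb2, an inhibitor of plasminogen activators, was at 63.0, 421 and 63.9 CPM in 41, 302 and 41 cells, 6.59-fold lower. Ccn1, a matrix-associated early response protein, was at 39.9, 179 and 29.2 CPM in 32, 252 and 29 cells, 6.13-fold lower. Cxcl14, a chemokine of resting epithelium, was at 68.3, 333 and 57.6 CPM, 5.79-fold lower. Among members without Krt5 the log2 ratio was -0.44 for Cxcl14, under 1.5-fold, and -0.73 for Ccn1. In Krt79-free keratinocytes the log2 ratio of Thbs1 was -1.22 and in bulge cells -1.07, against -3.02 in members, a difference that was not tested. For Serpinb2 it was -0.72 in Krt79-free keratinocytes and -3.17 in bulge cells, against -2.72 in members. Ccn1 was at -0.50 and -1.43 and Cxcl14 at -0.77 and -1.01 in the same order, against -2.615 and -2.53 in members. With high doublet scores removed the log2 ratio was -2.28 for Thbs1 and -1.81 for Serpinb2.

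Immediate early genes, which cells transcribe within minutes of a stimulus and also during tissue digestion, were lower with alopecia across the list. Of 35 measured, 29 were called lower and 0 higher, at a median log2 ratio of -1.01, against 10.6% and 6.46% of all genes. Fos, a subunit of the AP-1 factor, was at 1880 CPM in wild type, 2361 in no alopecia and 993 in alopecia (-1.25, -1.29 to -1.21). Egr1, a zinc finger factor, was at 1419, 1737 and 673 CPM (-1.37, -1.42 to -1.32). Here wild type lay near the library without alopecia, and the alopecia library was the low one.

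Other genes of the same list included Zfp36, which promotes decay of cytokine mRNAs, at 1262, 1795 and 576 CPM, 3.12-fold lower with alopecia (log2 ratio -1.64, -1.70 to -1.59). Ier3, a survival gene, was at 523, 702 and 199 CPM, 3.53-fold lower (3.31 to 3.76). Dusp1, a phosphatase of MAP kinases, was at 865, 1183 and 515 CPM (-1.20, -1.26 to -1.14). Gadd45b, a stress sensor, was at 254, 288 and 95.6 CPM (-1.59, -1.73 to -1.45). Exceptions under 1.5-fold included Klf4, a factor of epidermal differentiation (519, 474 and 417 CPM), and Egr2 (250, 201 and 193 CPM).

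The list was lower on both sides of the Krt5 split. Of 34 genes measured in members without Krt5, 28 were called lower, at a median of -0.86. In members with Krt5, 25 of 34 were called lower at -0.84, with a background of 9.08%. Fos was at 1717, 1991 and 731 CPM without Krt5 and at 2236, 2598 and 1436 CPM with it. Zfp36 was at 1130, 1482 and 452 CPM against 1550, 1996 and 786 CPM. After thinning to 2000 UMIs, Fos was detected in 48.9% of wild-type members, 56.6% without alopecia and 27.3% with alopecia.

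The same list was low with alopecia in other cells of the libraries as well. In Krt79-free keratinocytes 17 of 35 were called lower, at a median of -0.58, where the background was 5.12% lower. In bulge cells 24 of 35 were called lower at -0.89, with a background of 13.9%. Thinned fibroblasts held Fos in 56.8%, 52.5% and 38.2% of cells. The digestion time of each library is not given in the sources used here, and the part of handling in these levels was not tested.

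**Figure D4:**
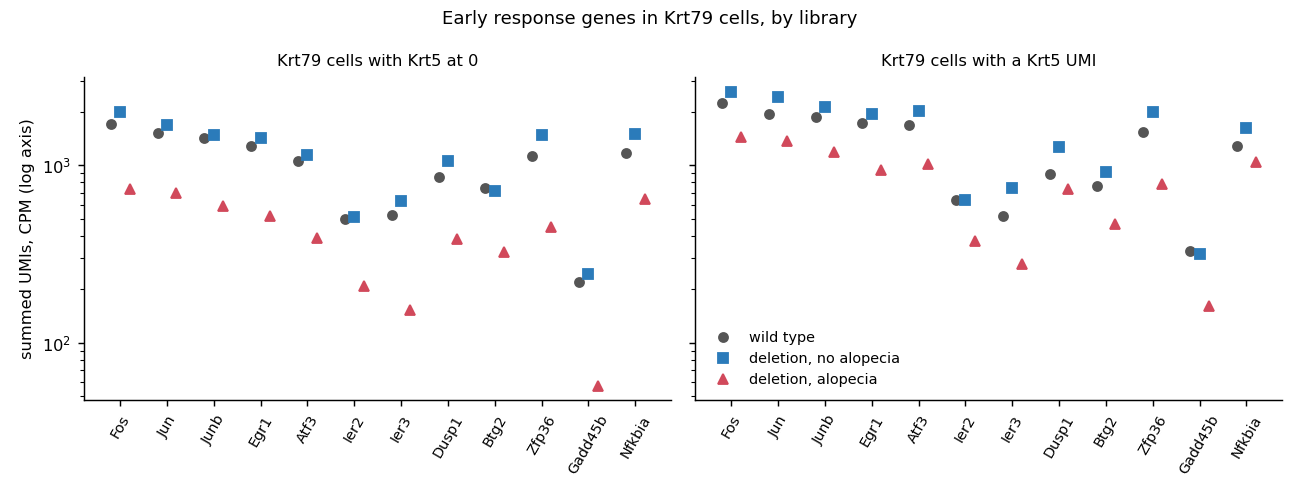
Summed level in CPM (log axis) of 12 early response genes in members without (left) and with (right) a Krt5 UMI, 1 symbol per library. The alopecia library is the lowest of the 3 for every gene drawn in both panels.

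Feedback genes of NF-kappa B, the factor downstream of tumour necrosis factor and interleukin-1 receptors, were also lower. Of 15 measured, 9 were called lower and 1 higher, at a median of -0.90, against 10.6% and 6.46% of all genes. In members without Krt5, 7 of 14 were lower, against 6.78%. Nfkbia, which encodes the inhibitor that NF-kappa B itself induces, was at 1208 CPM in wild type, 1577 in no alopecia and 796 in alopecia (-0.99, -1.03 to -0.94). Tnfaip3, the ubiquitin-editing inhibitor, was at 97.4, 170 and 73.1 CPM, and Icam1, an adhesion ligand of leukocytes, at 53.2, 104 and 34.6 CPM. Nfkb1, a subunit of the factor, stood at 182, 174 and 181 CPM, level in all 3 libraries. Traf1, a receptor adaptor, was the gene called higher, at 11.1, 11.6 and 18.4 CPM.

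Ligands of the epidermal growth factor receptor followed. Hbegf was at 157 CPM in wild type, 133 in no alopecia and 67.8 in alopecia (-0.97, -1.14 to -0.81), and Areg at 96.2, 75.1 and 44.9 CPM (-0.74, -0.95 to -0.54). For both, the alopecia library was lowest and wild type highest. Of 17 ligand and target genes measured, 9 were called lower and 1, Btc, higher, against 10.6% and 6.46% of all genes. In members without Krt5, 4 of 12 were called lower and the median was -0.10. Egfr, the receptor, was at 146, 165 and 165 CPM.

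Genes induced through the glucocorticoid receptor divided. Fkbp5, a chaperone of that receptor, was at 194 CPM in wild type, 45.6 in no alopecia and 149 in alopecia, 3.27-fold higher with alopecia (2.93 to 3.64). Zbtb16 was at 296, 131 and 309 CPM (1.24, 1.14 to 1.34), and Tsc22d3, an anti-inflammatory leucine zipper protein, at 171, 110 and 190 CPM (0.79, 0.67 to 0.91). These were the 3 of 17 called higher, and for each the library without alopecia was the low one. Among members without Krt5 their log2 ratios were 1.39, 1.40 and 0.94. The log2 ratio of Fkbp5 was 2.82 in Krt79-free keratinocytes and 1.18 in bulge cells, so its direction was the same there. Thinned fibroblasts held Fkbp5 in 22.9% of cells in wild type, 8.69% in no alopecia and 30.8% in alopecia.

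In the other direction 9 genes of that list were called lower, against 10.6% of all genes. In members without Krt5, 9 of 16 were called lower at a median of -0.70, against a background of 6.78%. In members with Krt5, 4 of 17 were called lower at -0.39, against 9.08%. Among the 9 called lower over all members were the metallothioneins, which bind metals and respond to several stresses. Mt1 was at 1743, 4090 and 1108 CPM, 3.69-fold lower with alopecia, and Mt2 at 596, 1228 and 362 CPM, 3.39-fold lower. Klf9 was at 61.3, 115 and 53.4 CPM and Cebpd, a factor of acute responses, at 115, 159 and 68.1 CPM. The list median was -0.65, so it hides 2 opposite sets. Metallothioneins also stand in the oxidative stress list, of which 11 of 20 were called lower at a median of -0.68, including Fth1, the ferritin heavy chain (204, 767 and 269 CPM).

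Genes ranked among the highest with alopecia had several roles. Glul, glutamine synthetase, was at 265 CPM in wild type, 154 in no alopecia and 403 in alopecia, 2.62-fold higher. Camk1d, a calcium-dependent kinase, was at 6404, 2674 and 7954 CPM, 2.97-fold higher (2.93 to 3.02). Jarid2, a partner of Polycomb repressive complexes, was at 990.0, 408 and 1190 CPM and Adgrl3, an adhesion receptor, at 629, 245 and 675 CPM.

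For each of these genes the library without alopecia was the lowest, and wild type lay between the other two for Glul and nearer to alopecia for Camk1d, Jarid2 and Adgrl3. The log2 ratio of Camk1d was 1.89 in Krt79-free keratinocytes and 1.48 in bulge cells, so its direction was the same there. Median mitochondrial shares, a measure of RNA quality, lay in the same order, at 2.62%, 1.92% and 2.69%. These are shares of members that had already passed the mitochondrial limit. Malat1, a nuclear noncoding RNA, was at 5002, 3903 and 5169 CPM. It was chosen after its values were seen, so its order is no test of RNA quality. The part of RNA quality in these genes was not tested.

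Inner root sheath transcripts among the ranked genes rested on few cells. Krt71 was at 1.76, 1.78 and 55.3 CPM in 6, 4 and 5 cells, and Krt25 at 6.28, 5.34 and 65.5 CPM in 2, 7 and 5 cells. Tchh, which encodes trichohyalin, was at 10.0, 21.7 and 142 CPM, and 7 cells held 95.3% of its UMIs in the alopecia library. With members holding inner root sheath UMIs left out, its log2 ratio turned to -0.26.

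Few genes of antigen presentation were called. Of 21 genes of MHC class I presentation, 1 was called lower with alopecia and 0 higher, at a median of -0.07. Over all genes 10.6% were called lower and 6.46% higher. H2-K1, a class I heavy chain, was at 1172 CPM in wild type, 1401 in no alopecia and 1205 in alopecia. B2m, the light chain that class I molecules share, was at 1297, 1339 and 1274 CPM, with a log2 ratio of -0.07 (-0.11 to -0.03). Psmb8, an immunoproteasome subunit, was the gene called lower, at 86.1, 107 and 70.1 CPM. In bulge cells of the same libraries 13 of the 21 were called lower at a median of -0.97. Whether members and bulge cells differ in this beyond library handling was not tested.

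Interferon gamma response genes were few and low. Of 8 measured, 4 were called lower and 1 higher, against 10.6% and 6.46% of all genes. Irf1, an interferon-induced factor that is also an early response gene, was at 186, 232 and 101 CPM (-1.19, -1.33 to -1.06), and Socs1, which inhibits JAK kinases, at 26.9, 30.8 and 14.2 CPM. Cxcl10, a chemokine for CXCR3-bearing T cells, was at 13.1, 23.1 and 8.45 CPM. After thinning, Cxcl10 was detected in 1.40%, 1.83% and 0.91% of members, against 3.52%, 2.38% and 2.13% of fibroblasts, which can make it themselves. Free RNA in these low levels was not tested.

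Il15, a cytokine that sustains resident T cells and natural killer cells, was the epithelial cytokine called higher. It was at 36.7 CPM in wild type, 25.2 in no alopecia and 41.9 in alopecia (0.73, 0.48 to 0.98). After thinning it was detected in 6.39%, 5.75% and 8.35% of members and in 1.76%, 1.16% and 0.592% of fibroblasts. The lowest library was again that without alopecia, and wild type and alopecia lay within each other's counting error (0.19, -0.12 to 0.50). Il34, the ligand that maintains Langerhans cells, was at 143, 126 and 144 CPM, and Ccl27a, a chemokine that draws skin T cells, at 1920, 1633 and 1667 CPM, both under 1.5-fold. Il7, a survival factor of lymphocytes, was at 3.52, 4.45 and 2.88 CPM, past 1.5-fold but with an interval that spans 0 (-0.63, -1.55 to 0.21). Ccl20 was at 6.03, 5.79 and 4.61 CPM, under 1.5-fold, and Ccl2, a monocyte chemokine, at 16.8, 17.6 and 10.9 CPM (-0.68, -1.13 to -0.26). After thinning, Ccl2 was detected in 1.40%, 1.71% and 1.52% of members and in 9.98%, 10.8% and 8.18% of fibroblasts, so the part of free RNA in it was not tested either. With high doublet scores removed the log2 ratio of Il15 was 0.52, under 1.5-fold, and with equal Krt79 tertiles that of Ccl2 was -0.26. In all, 1 of 13 epithelial cytokines was called higher and 6 lower, and of 9 epithelial chemokines 0 were called higher and 5 lower. Over all genes 6.46% were called higher and 10.6% lower, so 1 of 13 higher is near the share of all genes. In members without Krt5 the counts were 0 of 6 cytokines either way and 2 of 6 chemokines lower.

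Against wild type, the library without alopecia had 1190 of 10762 genes called higher (11.1%) and 566 lower (5.26%), at a median log2 ratio of 0.05. Of 20 upper follicle genes, 2 were called higher (Lgr6 and Fst) and 4 lower, against 3 and 2 with high doublet scores removed. Defb6 had a log2 ratio of -1.05 (-1.07 to -1.03), and of -0.55 in members without Krt5. Cst6 had a log2 ratio of -0.48 over all members and of 0.08 in members without Krt5. Of the marker differences, that of Defb6 thus passed 1.5-fold before the split and was just under it after, while that of Cst6 was near 0 after it.

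Basal layer genes were called higher in 14 of 16 at a median of 1.29, in 3 of 13 at 0.26 in members without Krt5 and in 12 of 16 at 0.85 in members with it. Cell cycle genes were called higher in 15 of 19 at 1.72, in 0 of 5 in members without Krt5 and in 13 of 19 at 1.57 in members with it. Oxidative stress genes were higher in 13 of 20 at 0.91, and in 8 of 18 at 0.45 in members without Krt5. Wound response genes were higher in 9 of 11 at 1.29, and in 2 of 7 at 0.39 in members without Krt5. The background in members without Krt5 was 4.95% higher and 3.45% lower, and in members with Krt5 11.1% higher.

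Single genes ranked highest against wild type were Thbs1, 13.9-fold higher (11.5 to 16.8), Igfbp3, a binding protein of insulin-like growth factors, 8.06-fold, and Serpinb2, 6.68-fold. Among members without Krt5 the log2 ratio of Serpinb2 was 0.58, under 1.5-fold. Igfbp3 was at 18.6, 150 and 68.1 CPM. Its UMIs lay in 6, 161 and 17 cells, and its log2 ratio of 3.01 was 4.70 with high doublet scores removed and -0.39 in members without Krt5. Among those ranked lowest was Fkbp5 (4.26-fold lower), also called higher with alopecia against no alopecia. Il31ra, a subunit of the interleukin-31 receptor, was at 4658, 1860 and 4357 CPM, 2.50-fold lower, and Slit3, a guidance ligand, at 524, 199.95 and 495 CPM, 2.62-fold lower. In Krt79-free keratinocytes the log2 ratio of Il31ra was -1.28 and in bulge cells -0.81, against -1.32 in members. Both Il31ra and Slit3 were thus lower in those other cells of the library too.

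Immediate early genes differed less here, with 10 of 35 called higher at a median of 0.33, 6 of 35 with equal Krt79 tertiles, and 3 of 34 higher and 1 lower at 0.13 in members without Krt5. Zfp36 had a log2 ratio of 0.51 and Ier3 of 0.42, both under 1.5-fold. MHC class I genes had 0 of 21 called either way, at 0.05.

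Alopecia against wild type gave the fewest calls, 355 of 9511 genes higher (3.73%) and 294 lower (3.09%), at a median of 0.03. This comparison leaves out the library without alopecia. Of 20 upper follicle genes, 1 (Krt7, at 15.3, 12.2 and 9.98 CPM) was called lower and 0 higher, and Cst6 had a log2 ratio of 0.17 (0.16 to 0.19). Defb6 was at 10097 CPM in wild type and 7377 with alopecia, a log2 ratio of -0.45 (-0.47 to -0.43). Of 16 basal layer genes 1 was called higher and 1 lower, and of 21 class I genes 0 were called.

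Of 34 immediate early genes measured, 17 were called lower and 0 higher, at a median of -0.63. In members without Krt5, 23 of 33 were called lower and 1 higher, at -0.87, against a background of 4.56% lower and 4.02% higher. Gadd45b was 2.66-fold lower, Ier3 2.63-fold and Zfp36 2.19-fold. Socs3, the feedback inhibitor of STAT3 signalling, was at 369, 459 and 166 CPM, 2.22-fold lower than wild type. The ranked genes highest in wild type were Ly6e, an interferon-inducible surface protein, at 157, 79.3 and 54.9 CPM (2.87-fold lower), and Chit1, a chitinase, at 63.5, 25.4 and 18.8 CPM (3.38-fold lower).

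Higher with alopecia than in wild type, beside the inner root sheath genes in few cells, were Fmo5, a flavin-containing monooxygenase (65.8, 65.6 and 141 CPM, 2.14-fold), and Eya2, a transcriptional cofactor (29.1, 18.5 and 59.1 CPM, 2.03-fold). For Fmo5 wild type and no alopecia were level and the alopecia library stood apart.

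**Figure D5:**
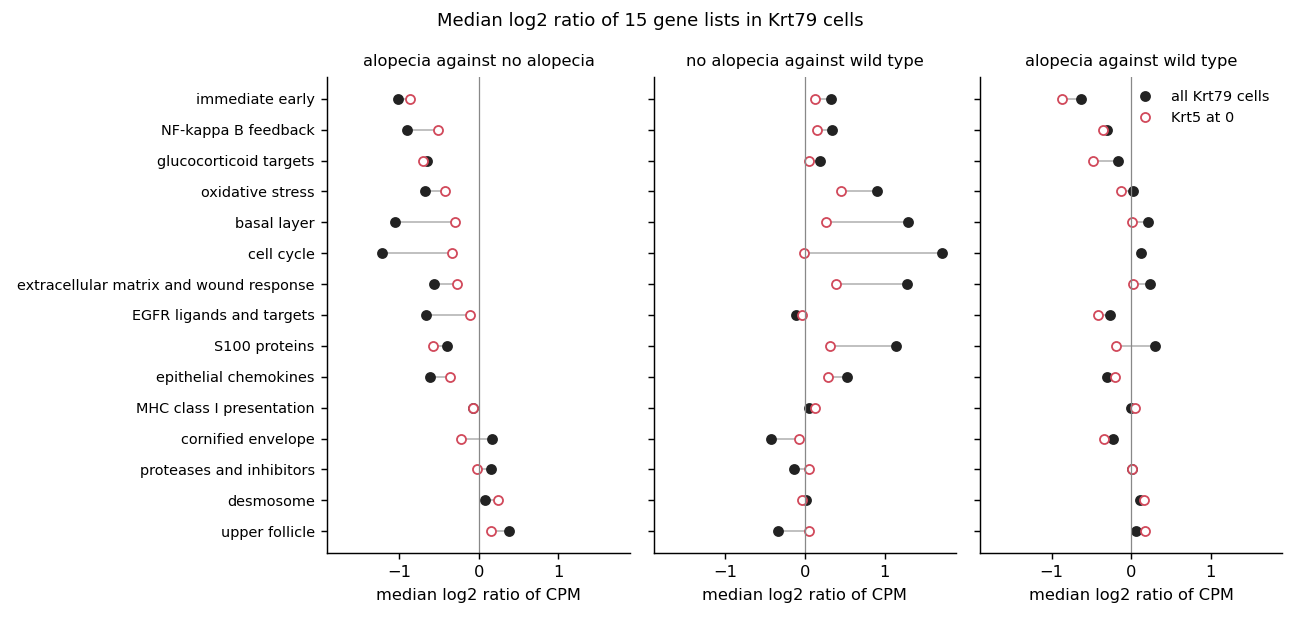
Median log2 ratio of CPM of 15 gene lists in each comparison, for all Krt79 cells (filled) and members without a Krt5 UMI (open). The immediate early median lies at -1.01 and -0.86 with against without alopecia, while the basal layer median moves from -1.05 to -0.29.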

How the data were processed

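Single cells of mouse skin were profiled in 6 droplet libraries, of which the 3 CD45-negative ones were used, 1 per group. Per the file headers, each deposited table holds raw UMI counts of 32285 genes by barcode, and per the submitters' processing notes the authors used Cell Ranger 7.1.0 with build mm10. Of the annotation release and of doublet removal nothing is given in the sources used here.

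The membership rule and the gene lists were chosen with earlier results of these data known. UMIs were summed over members and scaled to an equal total per library (CPM). Ratios carry exact conditional binomial 95% intervals and shares Clopper-Pearson ones, for counting error only. UMIs are not independent cells or animals, and no p-value was computed. A gene was called at 1.5-fold with at least 50 summed counts over both libraries, and a sum of 0 was set to 3 counts. The method was tested on simulated data.

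Named genes had at least 50 CPM in the higher library and at least 20% of the level in other kept cells, and their rank came from whichever interval bound lay nearer 1. The first 12 each way were taken for alopecia against no alopecia and 6 each way otherwise, of which the text describes some. Mitochondrial, ribosomal, hemoglobin, receptor, sex-linked, unnamed and rule genes were left out. Of 30 gene lists, members with most counts or largest ratios are given as examples. Malat1 was chosen after its values were seen.

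An automatic doublet caller (Scrublet in scanpy) marked 2, 0 and 1 barcodes and so did not work. All members were kept, and as an alternative the highest scores were removed at 0.4% per 1000 barcodes. Other alternatives were the mitochondrial limit, the Krt79 threshold, depth, cells with markers of other lineages, scaling, equal weight of cells, a count minimum of 20 and equal Krt79 tertiles. Splits by Krt5 and removal of inner root sheath cells were added after seeing the data. Upstream sequences came from RefSeq (GRCm38.p6), where no entry was found for Krt17 and Cst6. Python 3.11.15, numpy 2.4.6, scipy 1.17.1, pandas 2.3.3, scanpy 1.11.5 and matplotlib 3.10.9 were used.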

Additional observations from a re-analysis of the deposited data

How the results depend on the processing

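No paired analysis was possible because each group has 1 library. Under the alternatives of cell filter, threshold, scaling and weight, 720 of 770 list medians, 543 of 729 single-gene ratios and 49 of 54 gene counts moved by less than their limit. The 729 include the count minimum of 20, which leaves the ratio of a single gene as it was. Those ratios could not move, so the tally of 543 is no measure of stability for that setting. None of 135 list medians past 1.5-fold changed sign, and 45 of 635 under it did, such as that of keratin filaments, from -0.29 to 0.01 with doublets removed. With at least 20 summed counts, 1069 genes were higher with than without alopecia, 903 were lower without alopecia than in wild type, and 742 were higher and 541 lower with alopecia than in wild type. A mean of CPM over cells gave 452 genes lower with alopecia than in wild type. With no cell filter the share of members was 12.7% in wild type, 10.9% without alopecia and 10.6% with alopecia. Without alopecia it was 10.4% with at least 5 Krt79 UMIs and 12.04% after thinning to 1000 UMIs. Settings chosen after seeing the data moved more. In members without a Krt5 UMI, 431 genes were higher and 620 lower with than without alopecia, 445 were higher and 310 lower without alopecia than in wild type, the Igfbp3 log2 ratio in that comparison was -0.39 and the cell cycle median -0.01 over 5 genes. With the same share of Krt5 members in each library, 763 genes were higher without alopecia than in wild type. In members with a Krt5 UMI, the log2 ratio with against without alopecia was -0.49 for Cst6 and 0.56 for Il7, that of Cxcl10 without alopecia against wild type was -0.61, and that of Ccl2 with alopecia against wild type was 0.81. With inner root sheath members left out, Tchh was at -0.26 with against without alopecia and -0.23 against wild type. The share of members with Krt5 was 17.0%, 28.9% and 14.6% up to 6000 UMIs and 19.2%, 38.6% and 22% after thinning to 2000 UMIs, in the order wild type, no alopecia and alopecia. Without alopecia it was 40.5% with doublets removed and 42.0% with at least 5 Krt79 UMIs. The cause of these shifts was not tested beyond the make-up that each setting fixes. With 1 library per group, depth limits only counting error, and differences between mice cannot be told apart from those between libraries.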

Other observations

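Signalling genes of the follicle that are not described above also differed between the libraries. Fgfr2, the receptor of keratinocyte growth factors, was at 522 CPM in wild type, 249 in no alopecia and 466 in alopecia, and the low library was that without alopecia on both sides of the Krt5 split (537, 225 and 484 CPM without Krt5, and 488, 265 and 436 CPM with it). Id1, a target of bone morphogenetic proteins, was at 166, 171 and 76.0 CPM, and Id3 at 247, 323 and 146 CPM, so the alopecia library was low for both. Of 21 Wnt, bone morphogenetic protein and hedgehog genes, 3 were called higher and 9 lower with against without alopecia. The median log2 ratio was -0.33, and over all genes 6.46% were called higher and 10.6% lower. In members without Krt5, 3 of 15 were called higher and 3 lower, at a median of 0.16. Lef1, a transcription factor of the Wnt pathway, was at 2.01, 3.12 and 23.4 CPM, and its UMIs with alopecia lay in 9 cells.

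Genes of desquamation and cell contact are given beside the share of all genes, 6.46% called higher and 10.6% lower with against without alopecia. Klk7, a protease that cleaves corneodesmosomes, was at 411 CPM in wild type, 289 in no alopecia and 483 in alopecia. Of 21 protease and inhibitor genes, 6 were called higher and 2 lower with against without alopecia, 2 higher and 2 lower with high doublet scores removed, and 2 higher and 1 lower in members without Krt5. Of 11 desmosome genes 2 were called higher and 2 lower. With high doublet scores removed, and also in members without Krt5, 1 desmosome gene was called higher and 0 lower. Of 17 tight and gap junction genes 1 was called higher and 2 lower, and of 17 cornified envelope genes 0 and 5. Dsc1, a desmosomal cadherin of upper layers, was at 258, 122 and 251 CPM, while Dsg3, a cadherin of lower layers, was at 40.2, 88.5 and 53.7 CPM. Lor, the cornified envelope protein loricrin, was at 19.8, 45.7 and 2.11 CPM in 15, 59 and 7 cells. Of 31 sterol and lipid synthesis genes, 3 were called higher and 4 lower, at a median of -0.07, and 7 were lower with members holding UMIs of other lineages left out.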
